A study of Homo sapiens with 6 samples.

Results

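Integrins, other receptors for collagen and matrix, and the focal adhesion proteins at their cytoplasmic side were examined in 2 subclones of DLD-1, an established human colorectal cancer line. The list held 33 genes, namely 20 integrin subunits, 2 discoidin domain receptors, CD44, 3 syndecans and 7 adaptors and kinases, listed by gene family and role. Of these, 31 had a probe set that the platform annotation assigns to them alone, out of 19775 genes measured. ITGB6 and DDR1 were represented only by probe sets shared with another symbol and were not measured here. The samples were 3 arrays of the subclone DLD-1Δα-Cat and 3 of the subclone DLD-1α-Cat, and what Δα-Cat abbreviates is not stated in the labels. Both subclones were untreated and had been kept for 96 h in type I collagen at 1 mg/ml, a ligand of several of the receptors on the list. Each subclone is a single derived line, and nothing in the labels says that its 3 samples were separate cultures, so the spread behind each p-value may be technical.

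Integrins are heterodimers of an α and a β chain that bind matrix outside the cell. The cytoplasmic tail of the β chain is bound by talin and by the kindlins, which bring it into the state that binds ligand, and the complex of ILK and the parvins, paxillin and focal adhesion kinase then assemble there and couple it to actin. Collagen is bound by α1β1, α2β1, α10β1 and α11β1 and, apart from the integrins, by the discoidin domain receptor tyrosine kinases. In the intestinal epithelium the usual kindlin is kindlin-1, whereas kindlin-2 is widespread outside epithelia.

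Levels are log2 intensities after RMA (robust multi-array average) by the authors, and every difference is the DLD-1Δα-Cat mean minus that of DLD-1α-Cat. Each gene was read from its brightest probe set and tested with limma in a fit over all 19775 genes, with Benjamini-Hochberg adjustment and a threshold of 0.05. A gene was called dim where both subclone means lay at or below 5.41, the 95th percentile of 82 olfactory receptor genes, used here as genes that colon cells are not known to need. CTNNA1, which encodes αE-catenin and checks the labels, averaged 11.23 ± 0.193 in DLD-1Δα-Cat, against 12.75 ± 0.0324 in DLD-1α-Cat (SD over 3 arrays). All 10 markers of colon epithelium were above the bound (mean levels 9.49 to 14.08). Of 12 fibroblast markers 8 were dim, as were 6 of 10 endothelial and 5 of 11 measured leukocyte markers. Precision is limited throughout by having 3 arrays a subclone.

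Among the 31 measured genes 2 rose in DLD-1Δα-Cat, the kindlin gene FERMT2 and the focal adhesion kinase gene PTK2, and 0 fell. Of all genes tested, 3.84% were called higher and 1.67% lower, so the count of higher members stood close to the background. At an unadjusted p under 0.05, limma gave 7 members higher and 2 lower. That is 29.0% of the members, against 20.8% of all genes. The median difference of the members was 0.062, against -0.030 for all genes, and the median size of a difference 0.21, against 0.16. The 3 arrays of each subclone did not overlap for 7 members higher in DLD-1Δα-Cat and 4 lower, where 14.1% and 13.1% of all genes did so. For 28 of the 31 members the 95% interval of the difference, not adjusted for the number of genes, lay inside 2-fold in both directions. This share of 90.3% was near the 91.2% of all genes. The exceptions among the members were FERMT2, ITGA10 and ITGA4.

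**Figure D1:**
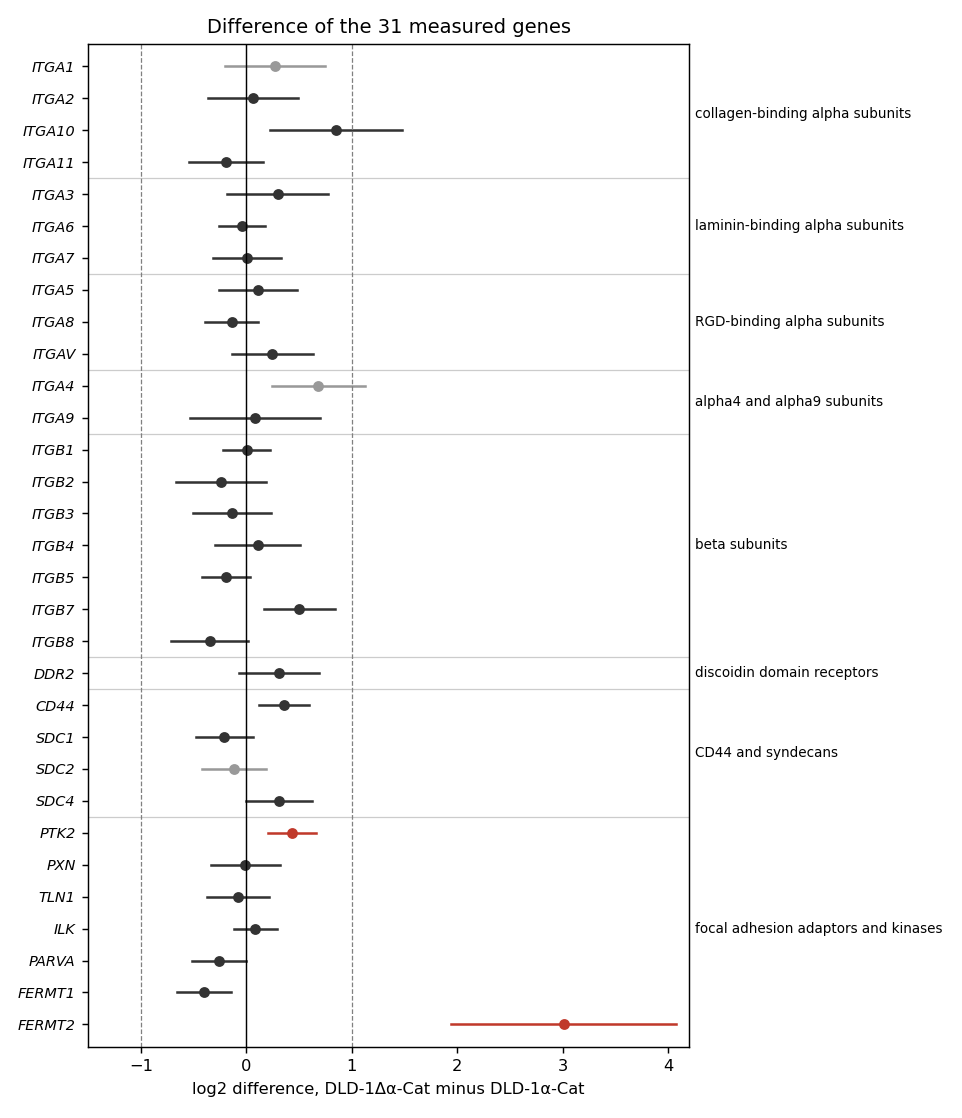
Difference between the subclones for the 31 measured genes on the log2 scale (x axis), grouped by role, with points for the estimate and bars for limma's 95% interval. Red marks adjusted p under 0.05, grey marks genes dim in both subclones and dashed lines mark 2-fold. FERMT2 at 3.01 stands far to the right, and the other 30 estimates lie between -0.40 and 0.85.

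FERMT2, which encodes kindlin-2, was the member that differed most. It stood at 8.33, 7.85 and 7.60 in the 3 DLD-1Δα-Cat arrays, against 4.07, 4.68 and 5.999 in the 3 DLD-1α-Cat arrays. All DLD-1Δα-Cat arrays lay well above all DLD-1α-Cat arrays, and in DLD-1α-Cat 2 of the 3 lay below the bound for dim genes. The difference was 3.01 (SE 0.456, limma adjusted p = 0.0123), an 8.05-fold change on the scale of RMA with a 95% interval of 3.84 to 16.9-fold. Since the DLD-1α-Cat mean of 4.92 is in the dim range, this fold is no ratio of RNA copies. The DLD-1α-Cat arrays were themselves spread over 1.93, with an SD of 0.987 that was the widest of any member in either subclone, against a median SD of 0.163. Leaving out each array in turn gave differences from 2.59 to 3.55, and FERMT2 passed in 6 of 6 such runs (adjusted p up to 0.0444).

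The call of FERMT2 rests on 1 of its 3 probe sets. The probe set used, 209210_s_at, was the only one that passed when every probe set was tested on its own (adjusted p = 0.0210). The second, 214212_x_at, averaged 5.50 in DLD-1Δα-Cat, against 5.41 in DLD-1α-Cat, and differed by 0.090 (adjusted p = 0.785). The third, 209209_s_at, was dim, at 4.08 and 3.59, with a difference of 0.49 (adjusted p = 0.359). With the mean of the 3 probe sets the difference was 1.20 (adjusted p = 0.00608). Measures of RNA quality and marker genes of other cell types were set beside it. The 3' control probe set of β-actin exceeded the 5' one by 5.20 ± 0.159 in DLD-1Δα-Cat, against 4.69 ± 0.291 in DLD-1α-Cat (log2, SD over 3 arrays). A two-sided exact permutation test gave p = 0.1, the smallest that 3 against 3 arrays allow. For GAPDH the 3' excess was 0.749 ± 0.067 in DLD-1Δα-Cat, against 0.656 ± 0.144 in DLD-1α-Cat (same permutation test, p = 0.4). The β-actin excess ran from 5.07 to 5.38 over the DLD-1Δα-Cat arrays and from 4.36 to 4.89 over the DLD-1α-Cat arrays. The groups did not overlap, so this covariate cannot be fully separated from the subclone. With it, calls over all genes fell from 760 to 58 higher and from 331 to 26 lower. With the β-actin excess as a covariate the FERMT2 difference was 4.21 and did not pass (adjusted p = 0.0691). Nor did FERMT2 pass without moderation of the variances across genes (adjusted p = 0.138). Fibroblasts are rich in kindlin-2, and the summed log2 levels of the 12 fibroblast markers ran from 54.7 to 55.6 over the DLD-1Δα-Cat arrays and from 54.5 to 58.3 over the DLD-1α-Cat arrays. COL1A2, COL3A1, COL6A3, DCN, LUM, PDGFRA, FAP and POSTN were dim in both, while COL1A1, THY1, PDGFRB and DPT lay above the bound, and 0 of 12 passed (limma, 2 at an unadjusted p under 0.05). All samples are subclones of DLD-1, so these levels are no count of fibroblasts. Their relation to the FERMT2 values was not tested.

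The promoter window of FERMT2 is shown because this gene carries the largest difference. That of CD44, described further on, is shown because its 13 probe sets lay on 1 side. The probe sets of ITGB5 and ITGB8, among others, also lay on 1 side, and their windows are not shown. Both windows come from RefSeq (GRCh38.p14), where 23 of the 33 genes had an entry. They run 5′ to 3′ in the direction of the gene from 250 bases before to 50 after its start. Capitals mark the GC box GGGCGG read on either strand (CCGCCC on the other), and neighbouring matches can overlap by a base. The FERMT2 window is chr14:52951001-52951300, minus strand, and that of CD44 is chr11:35138921-35139220, plus strand.
FERMT2: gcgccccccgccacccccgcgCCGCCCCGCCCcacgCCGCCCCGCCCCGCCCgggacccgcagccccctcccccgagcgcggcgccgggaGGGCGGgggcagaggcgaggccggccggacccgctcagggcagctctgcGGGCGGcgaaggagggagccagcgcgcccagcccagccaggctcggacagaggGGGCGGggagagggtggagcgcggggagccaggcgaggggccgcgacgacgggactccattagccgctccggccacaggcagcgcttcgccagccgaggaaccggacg
CD44: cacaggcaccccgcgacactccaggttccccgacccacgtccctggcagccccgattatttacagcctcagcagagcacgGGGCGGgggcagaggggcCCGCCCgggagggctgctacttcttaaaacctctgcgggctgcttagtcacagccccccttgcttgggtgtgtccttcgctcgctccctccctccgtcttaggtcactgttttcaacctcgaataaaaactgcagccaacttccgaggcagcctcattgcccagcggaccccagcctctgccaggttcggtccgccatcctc

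The FERMT2 window was 82% G and C, at percentile 98.9 of 35116 windows of 300 bases, with 43 CpG pairs. The GC box occurred 8 times in it, and 45.0% of all windows held at least 1. The CD44 window was 63.3% G and C, with 18 CpG pairs and 2 GC boxes. The E-box CAGGTG, the AP-1 motif TGANTCA and the TEAD motif GGAATG, each searched on both strands, were in neither window, and 20.6%, 7.71% and 14% of all windows held them. These matches describe the letters only.

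FERMT1, which encodes kindlin-1, the epithelial relative, stood at 10.09, 10.22 and 10.18 in DLD-1Δα-Cat, against 10.70, 10.41 and 10.58 in DLD-1α-Cat. Every DLD-1Δα-Cat array was below every DLD-1α-Cat array. The difference of -0.40 (SE 0.110, 95% interval -0.66 to -0.14) did not pass over all genes (adjusted p = 0.0880), nor in any of the 16 alternative settings. Its second bright probe set, 60474_at, gave -0.40 as well, again without overlap, while the dimmer 229545_at and 232479_at gave 0.089 and -0.22. Thus the bright kindlin-1 probe sets and 1 kindlin-2 probe set stood in opposite order between the subclones, and only the kindlin-2 one passed.

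PTK2, which encodes focal adhesion kinase, the tyrosine kinase that phosphorylates paxillin and recruits Src, rose by a small amount. It read 12.57, 12.65 and 12.72 in DLD-1Δα-Cat, against 12.13, 12.29 and 12.23 in DLD-1α-Cat. The groups did not overlap, and their SDs were 0.0783 and 0.0812. The difference was 0.43 (SE 0.0977), or 1.35-fold with a 95% interval of 1.15 to 1.58-fold, and its adjusted p of 0.0492 lay just inside the threshold. The probe set 207821_s_at gave the same difference of 0.43, whereas 241453_at and 1559529_at gave -0.066 and 0.029. PTK2 passed in 5 of 16 alternative settings, and it missed the threshold whichever of the 6 arrays was left out (adjusted p from 0.0596 to 0.171). With the β-actin excess as a covariate the difference was 0.45 (adjusted p = 0.515), with the mean of its probe sets 0.21 (adjusted p = 0.302), and with each array centred on its middle values 0.42 (adjusted p = 0.0527).

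**Figure D2:**
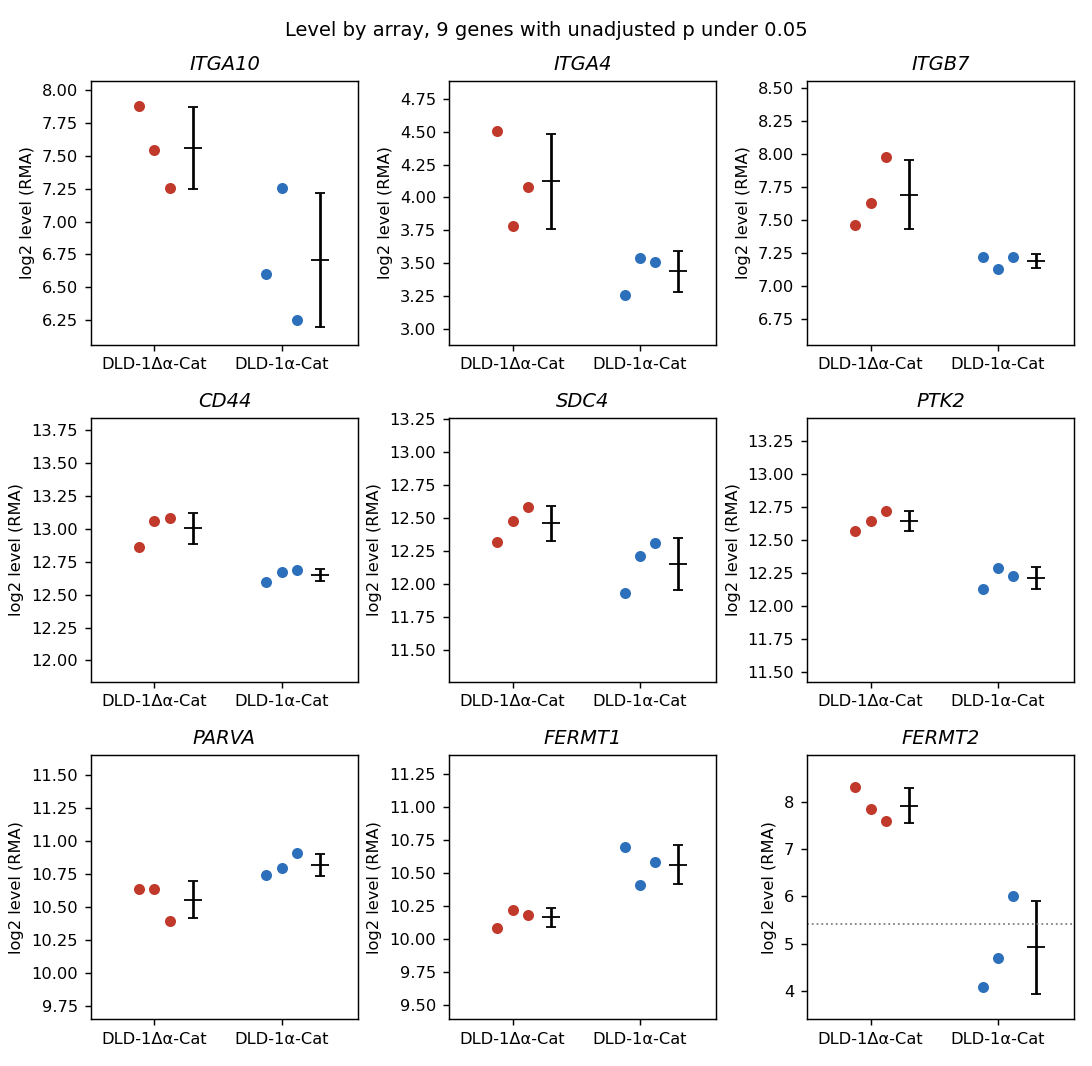
Log2 level on each array (y axis) for the 9 members with an unadjusted p under 0.05, DLD-1Δα-Cat in red and DLD-1α-Cat in blue, with the mean and SD in black and the bound for dim genes dotted in the panel it crosses. The FERMT2 panel spans a wider range than the others. The groups overlap in none of the panels except ITGA10, where 1 DLD-1α-Cat array reaches 7.26.

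The other adaptors at the integrin tail did not pass. Paxillin (PXN), a scaffold of focal adhesions, differed by -0.011 (adjusted p = 0.974), and its arrays overlapped from 9.83 to 10.06 in DLD-1Δα-Cat and from 9.70 to 10.14 in DLD-1α-Cat. Talin (TLN1), which binds the β tail beside kindlin and links it to actin, differed by -0.078 (adjusted p = 0.756), with a 95% interval of -0.37 to 0.22. Integrin-linked kinase (ILK), the core of the complex with the parvins, was steady in both groups. It read 12.23, 12.28 and 12.20 in DLD-1Δα-Cat and 12.12, 12.16 and 12.17 in DLD-1α-Cat, without overlap but only 0.086 apart (adjusted p = 0.609). Its partner α-parvin (PARVA), which binds actin, read 10.64, 10.64 and 10.40 in DLD-1Δα-Cat and 10.75, 10.80 and 10.91 in DLD-1α-Cat. That difference of -0.26 (SE 0.110) had an unadjusted p of 0.0483 and an adjusted p of 0.236. The 3 bright PARVA probe sets did not overlap between the subclones and gave -0.26, -0.19 and -0.22, and the 4 dimmer ones lay between -0.057 and 0.11.

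**Figure D3:**
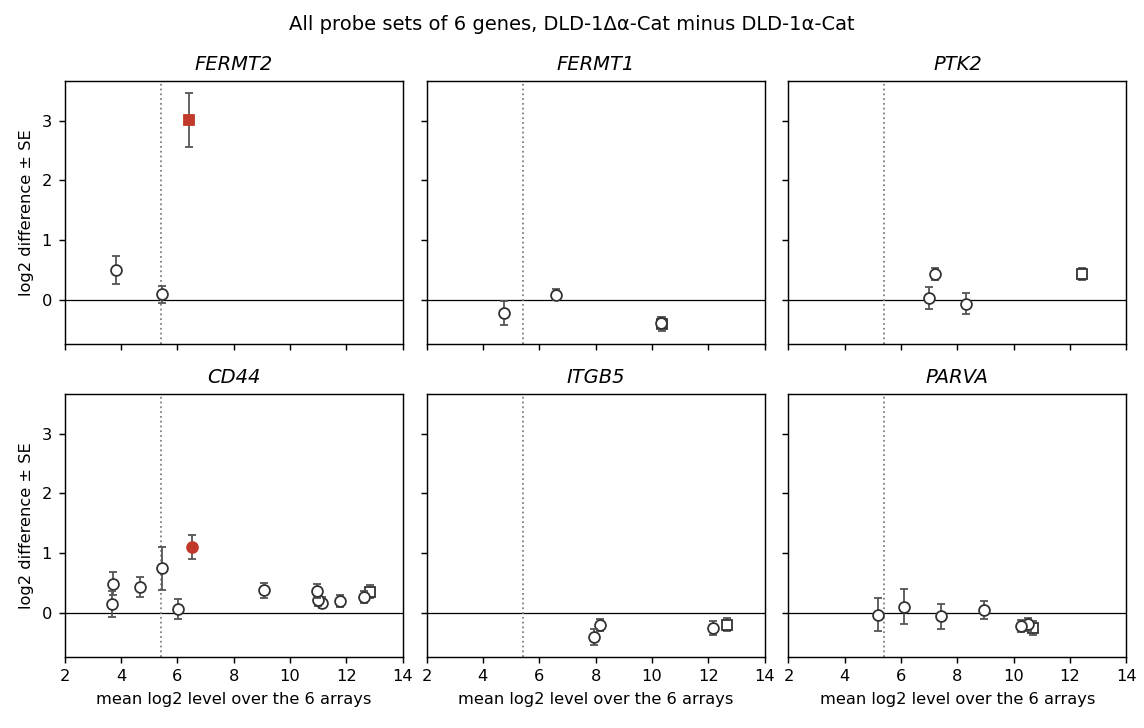
Difference between the subclones with its SE (y axis, log2) against the mean level over the 6 arrays (x axis, log2) for every probe set of 6 genes, from a fit over all 54613 probe sets. Squares are the probe sets used for the gene, filled symbols have adjusted p under 0.05 in that fit, and the dotted line is the bound for dim genes. FERMT2 has 1 probe set at 3.01, 1 near the bound and 1 well below the bound. The 13 probe sets of CD44 all lie above 0 and the 4 of ITGB5 all below.

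None of the 19 measured integrin subunits passed, with 3 higher and 0 lower at an unadjusted p under 0.05 in the same limma fit. Those 3 were 15.8% of the subunits, against 20.8% of all genes. Of the collagen-binding chains, ITGA2 (α2), the usual collagen receptor of epithelia, read 8.74, 9.21 and 9.12 in DLD-1Δα-Cat, against 8.69, 9.25 and 8.95 in DLD-1α-Cat. The groups overlapped almost entirely, and the difference of 0.062 had a 95% interval of -0.36 to 0.49 (adjusted p = 0.871). ITGB1 (β1), the partner of every collagen-binding α chain, read 11.95, 12.06 and 11.98 in DLD-1Δα-Cat and 11.97, 12.09 and 11.93 in DLD-1α-Cat. Its difference of 0.0033 had the interval -0.22 to 0.23, so a change of either chain of α2β1 by 2-fold lay outside the interval.

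ITGA10 (α10), known as a collagen receptor of cartilage, was the integrin that differed most. It read 7.88, 7.54 and 7.25 in DLD-1Δα-Cat, against 6.61, 7.26 and 6.26 in DLD-1α-Cat. The highest DLD-1α-Cat array reached the lowest DLD-1Δα-Cat array, and the difference of 0.85 (SE 0.267) did not pass (adjusted p = 0.123). Of 16 alternatives it passed in 1, without that array, replicate 2 of DLD-1α-Cat, where the difference was 1.13 (adjusted p = 0.0326). The lowest value without an array was 0.63, without replicate 3 of DLD-1α-Cat (adjusted p = 0.304), and with the β-actin excess as a covariate the difference was 0.22 (adjusted p = 0.919). ITGA1 (α1) was dim in both subclones, at 4.12 in DLD-1Δα-Cat against 3.85 in DLD-1α-Cat (adjusted p = 0.480). ITGA11 (α11), a collagen receptor of fibroblasts, averaged 5.63 and 5.82, just above the bound (difference -0.19, adjusted p = 0.5004). The other collagen receptor measured, the kinase DDR2, read 5.61, 5.77 and 6.13 in DLD-1Δα-Cat and 5.44, 5.39 and 5.73 in DLD-1α-Cat. Its difference of 0.31 did not pass (adjusted p = 0.322), and its 3 other probe sets were dim and gave -0.27 to -0.085.

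The laminin-binding chains showed no called difference. ITGA6 (α6), which pairs with β4 in the hemidesmosomes that fix epithelia to their basement membrane, averaged 12.97 ± 0.0419 in DLD-1Δα-Cat, against 13.00 ± 0.0743 in DLD-1α-Cat (SD over 3 arrays; difference -0.039, interval -0.26 to 0.18). ITGB4 (β4) averaged 10.32 ± 0.231 and 10.21 ± 0.266 (difference 0.11, adjusted p = 0.755). In both genes the arrays of the subclones overlapped on the probe set used. The 4 other ITGB4 probe sets gave -0.38 to -0.042, and the second ITGA6 probe set gave -0.19 without overlap. None of these passed when every probe set was tested on its own. ITGA3 (α3), the other epithelial laminin receptor, differed by 0.30 (adjusted p = 0.443, or 0.0959 with the block on replicate number) and ITGA7 (α7), a laminin receptor of muscle, by 0.0050 (adjusted p = 0.988).

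Chains that bind the RGD sequence of fibronectin and vitronectin were also without a call. ITGAV (αV) read 12.73, 12.98 and 12.80 in DLD-1Δα-Cat and 12.57, 12.91 and 12.29 in DLD-1α-Cat, which overlapped (difference 0.25, adjusted p = 0.432). ITGA5 (α5), the fibronectin receptor chain, differed by 0.11 (adjusted p = 0.728) and ITGA8 (α8) by -0.14 (adjusted p = 0.497). ITGB5 (β5), a partner of αV that binds vitronectin, read 12.53, 12.70 and 12.51 in DLD-1Δα-Cat, against 12.75, 12.78 and 12.80 in DLD-1α-Cat. All 4 of its probe sets were lower in every DLD-1Δα-Cat array than in any DLD-1α-Cat array, by 0.20 to 0.41, yet none passed (adjusted p from 0.185 to 0.417 over all probe sets). ITGB8 (β8), which with αV binds latent TGF-β, read 9.17, 9.15 and 8.97 in DLD-1Δα-Cat and 9.22, 9.76 and 9.34 in DLD-1α-Cat. The groups did not overlap, though the nearest arrays were close, and the difference of -0.35 did not pass (adjusted p = 0.258). Its 5 probe sets gave -0.62 to -0.11. ITGB3 (β3), the platelet chain, averaged 5.29 and 5.43, and 6 of its 7 probe sets were dim.

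Chains best known from leukocytes, and α9, which was listed with α4, were either near the bottom of the scale or without a call. ITGA4 (α4) read 4.51, 3.78 and 4.08 in DLD-1Δα-Cat, against 3.26, 3.54 and 3.51 in DLD-1α-Cat. The groups did not overlap, but every value lay below the bound for dim genes, and the difference of 0.68 did not pass (adjusted p = 0.0874). Its 3 other probe sets, also dim, gave -0.14 to -0.039. ITGB7 (β7), the partner of α4 in gut-homing lymphocytes, read 7.47, 7.63 and 7.98 in DLD-1Δα-Cat and 7.22, 7.13 and 7.22 in DLD-1α-Cat, a difference of 0.50 without overlap (adjusted p = 0.0936). ITGB2 (β2), the leukocyte chain, differed by -0.24 (adjusted p = 0.489) on the probe set used, while 202803_s_at gave 0.72 (adjusted p = 0.132), so its direction depends on the probe set. ITGA9 (α9) differed by 0.084 (adjusted p = 0.881), while its 3 other probe sets gave -0.37 to -0.15. The summed log2 levels of 11 leukocyte markers were 52.6 to 53.1 in DLD-1Δα-Cat, against 54.6 to 57.7 in DLD-1α-Cat. One of them, CD14, a monocyte marker, was called lower (difference -1.17, adjusted p = 0.00517). The sums of 10 endothelial markers did not overlap either, at 50.5 to 51.4 in DLD-1Δα-Cat, against 51.7 to 54.0 in DLD-1α-Cat, and 0 of them passed (limma, 0 higher and 3 lower at an unadjusted p under 0.05). Both groups are subclones of the DLD-1 line, so these sums are levels of marker genes and no count of leukocytes or endothelial cells. Their relation to the integrin values was not tested.

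CD44, the receptor for hyaluronan and a marker of colon cancer stem-like cells, read 12.86, 13.06 and 13.08 in DLD-1Δα-Cat, against 12.60, 12.67 and 12.68 in DLD-1α-Cat. The groups did not overlap, and the difference of 0.35 (SE 0.101, 95% interval 0.12 to 0.59) did not pass over all genes (adjusted p = 0.0979). All 13 CD44 probe sets were higher in DLD-1Δα-Cat, 8 of them without overlap, by 0.071 to 1.10. They read the same RNA samples and are not replicates. One of them, 229221_at, passed when every probe set was tested on its own, as did 2.45% of all probe sets (difference 1.10, SE 0.207, adjusted p = 0.0418). It read 6.98, 7.20 and 6.99 in DLD-1Δα-Cat, against 5.58, 6.40 and 5.88 in DLD-1α-Cat, which left a clear gap. CD44 is spliced into many variants, and the files do not give which exons a probe set reads.

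Syndecans carry heparan sulfate chains and act beside integrins. SDC4, the syndecan found in focal adhesions, read 12.32, 12.47 and 12.58 in DLD-1Δα-Cat and 11.93, 12.21 and 12.31 in DLD-1α-Cat. The lowest DLD-1Δα-Cat array was just above the highest DLD-1α-Cat array, and the difference of 0.31 did not pass (adjusted p = 0.239). SDC1, the main syndecan of epithelia, averaged 12.52 ± 0.108 in DLD-1Δα-Cat, against 12.73 ± 0.145 in DLD-1α-Cat (SD over 3 arrays; difference -0.21, adjusted p = 0.349), and its other probe set gave -0.36 without overlap (adjusted p = 0.177). SDC2 was dim in both, at 4.93 and 5.05 (adjusted p = 0.642).

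**Figure D4:**
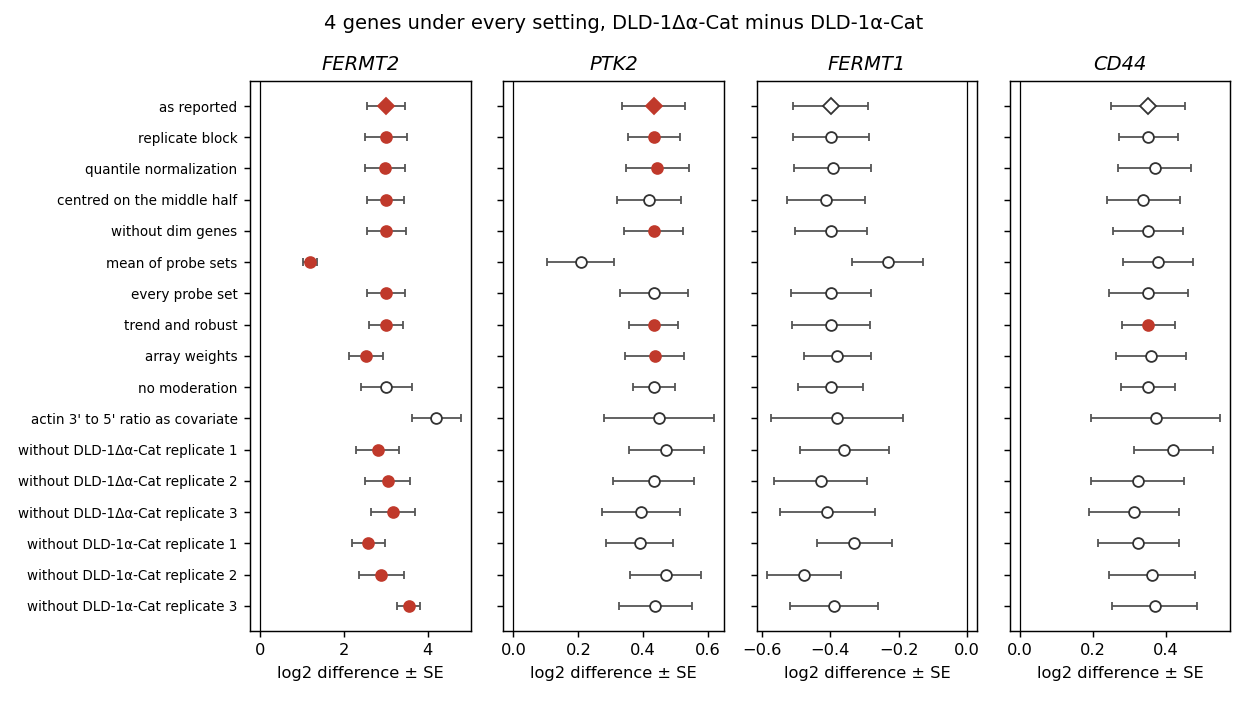
Difference between the subclones with its SE (x axis, log2; each panel has its own range) for 4 genes as reported (diamond) and under 16 alternative settings, listed down the page. Filled symbols have adjusted p under 0.05. FERMT2 passes in 14 of the 16 alternatives, PTK2 in 5, CD44 in 1 and FERMT1 in 0, and none of the 4 changes sign.

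Further genes of the same machinery were taken from 3 lists, of which 82 of 88 genes were measured. Among them 2 rose and 2 fell, where 3.84% of all genes were called higher and 1.67% lower. With the replicate number as a block 4 rose and 4 fell. The block also raised the calls over all genes, to 5.12% higher and 2.27% lower. The 4 higher of 82 stood near that background and the 4 lower of 82 above it, on few genes. Of 47 other adhesome genes, TGFB1I1 (Hic-5), a paxillin relative, rose, at 11.31, 11.46 and 11.59 in DLD-1Δα-Cat, against 10.40, 10.90 and 10.82 in DLD-1α-Cat (difference 0.75, adjusted p = 0.0391). TNS4, a tensin that binds β tails but lacks the actin-binding part of its relatives, fell, at 10.82, 11.11 and 10.99 in DLD-1Δα-Cat, against 11.46, 11.84 and 11.63 in DLD-1α-Cat (difference -0.67, adjusted p = 0.0334). Neither pair of groups overlapped. Leaving out any 1 array ended the call of TGFB1I1 (adjusted p up to 0.130), except for replicates 1 and 2 of DLD-1α-Cat, and that of TNS4 (up to 0.115), except for replicate 1 of DLD-1α-Cat. Vinculin (VCL), which joins talin to actin and also binds α-catenin, averaged 13.12 in DLD-1Δα-Cat, against 13.11 in DLD-1α-Cat (adjusted p = 0.942).

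Of 21 other matrix receptors and relatives, HMMR, a hyaluronan-binding protein that also acts on the mitotic spindle, fell by 0.83 on the log2 scale (SE 0.125, adjusted p = 0.0118). It read 11.46, 11.07 and 11.33 in DLD-1Δα-Cat, against 12.21, 12.10 and 12.05 in DLD-1α-Cat, and the groups were clearly apart. ITGBL1, an integrin β-like protein, rose by 1.28 (adjusted p = 0.0383), though in the dim range, at 5.64, 5.12 and 4.50 in DLD-1Δα-Cat against 3.77, 3.99 and 3.65 in DLD-1α-Cat. HMMR passed without any 1 array, whereas ITGBL1 did so only without replicate 3 of DLD-1Δα-Cat (adjusted p otherwise up to 0.146). With the mean of its probe sets ITGBL1 differed by 0.20 and did not pass (adjusted p = 0.361). Among 14 membrane partners of integrins 0 passed, with 0 higher and 3 lower at an unadjusted p under 0.05 (21.4%, against 20.8% of all genes). Caveolin-1 (CAV1), which differed most there, read 10.56, 10.08 and 10.55 in DLD-1Δα-Cat and 11.09, 10.81 and 11.20 in DLD-1α-Cat, without overlap (difference -0.64, adjusted p = 0.0767). CAV1 passed in 2 of 16 alternatives, 1 of them the block on replicate number (adjusted p = 0.0244), and in 0 of the 6 that left out an array. With the β-actin excess as a covariate its difference was -0.23 (adjusted p = 0.849).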

How the data were processed

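RNA of 6 samples was hybridised to Affymetrix oligonucleotide arrays. The deposited values are log2 intensities. The authors made them with RMA and Expression Console, per the submitters' processing notes, with no version stated there. RMA gives the arrays a common distribution, which hides any shift shared by all transcripts. From these, 62 control probe sets were left out of 54675, and 41091 had 1 symbol in the platform annotation of 2016. The brightest probe set stood for each of 19775 genes. For 3 members it is an x_at probe set (ITGA8, ITGB2 and ITGB5), a type that can share probes with other transcripts. No detection calls were used. Groups came from the sample titles, and the members and lists were chosen with earlier results of these data known. Named beyond the members were CTNNA1, each list's called genes (up to 6) or its most different gene, and VCL, which was added after its values were seen.

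The fit used limma 3.58.1 (R 4.3.3; two-sided, default eBayes settings) after a test on simulated data. The 16 alternatives changed the scaling, probe set rule, variance model, block or covariate, or left out dim genes or 1 array. Same-numbered arrays deviated together (r = 0.225, 0.376 and 0.122 over genes), against at most 0.067 for unlike numbers. The correlations are weak, but each lay above the limit of 0.1, so equal numbers may be pairs. This rests on the data, since no label states it. Reported values come from the fit without a block, and the fit with it was an alternative.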

Additional observations from a re-analysis of the deposited data

Results flagged for a closer look

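The CD44 probe set 229221_at was not used for the gene, since it is dimmer than 212063_at, yet it differed by 1.10 between the subclones and passed over all 54613 probe sets. It was the 1 of the 76 member probe sets outside the comparison of genes that did so, and 1338 of all 54613 probe sets passed (2.45%), so 1 of 76 is no more than the background. The cause of its larger difference was not tested.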

How the results depend on the processing

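Dim genes, with both means at or below 5.41, cannot be separated from background, and 3 arrays per subclone limit the power for small differences.

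Of 493 member values under 16 alternatives, 442 kept direction and side of the threshold, 13 lost the call, 3 gained it and 35, in 13 uncalled genes, changed sign. The replicate number as a block left the members at 2 higher and 0 lower and moved the further lists to 4 and 4; it changed no member's call. The higher members were 1 (FERMT2) with centring, with the mean of probe sets and with every probe set on its own, 4 with trend and robust estimation (CD44 and ITGA4 added), and 0 without moderation and with the actin ratio as a covariate. Lower members stayed at 0 under every alternative. Without single arrays, higher members were 1 to 2, all genes called 323 to 854 higher and 116 to 348 lower, and further genes 0 to 3 higher and 1 to 2 lower.

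All genes called were 1150 higher and 564 lower with trend and robust estimation, 549 lower with array weights, 67 and 48 without moderation and 58 and 26 with the actin ratio. Further genes were 5 and 4 with trend and robust estimation, 4 lower with array weights, 1 and 4 without dim genes, 0 and 1 with every probe set, and 0 and 0 without moderation and with the actin ratio.

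No value that changed sign exceeded 0.26 in size. The widest moves started from -0.24 in ITGB2 and from 0.25 in ITGAV as reported. With the actin ratio ITGA2 was at -0.079, ITGAV at -0.21, ITGB1 at -0.12, ITGB4 at -0.058, PXN at 0.076, SDC2 at 0.012 and TLN1 at 0.070. With the mean of probe sets DDR2 was at -0.047, ITGA11 at 0.040, ITGA2 at -0.059, ITGA9 at -0.16, ITGB2 at 0.26 and ITGB4 at -0.12. ITGA9 was at -0.029 with array weights, ITGA7 at -0.063 with quantile normalization, and ITGA7 and ITGB1 at -0.0093 and -0.011 with centring. Without single arrays ITGA2 ran from -0.076 to 0.21, ITGA5 from -0.023 to 0.21, ITGA7 from -0.098 to 0.10, ITGA9 from -0.16 to 0.30, ITGB1 from -0.031 to 0.049, ITGB4 from -0.025 to 0.24, PXN from -0.15 to 0.074 and TLN1 from -0.17 to 0.011. The causes of the sign changes were not tested. Leaving out an array or adding a covariate also removes degrees of freedom, which bears on the p-values and not on the sign.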

Other observations

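ITGB6, the partner of αV induced in migrating epithelia, and DDR1, the discoidin domain receptor of epithelia, are listed only together with LINC02478 and MIR4640, and their probe sets cannot be given to 1 gene. The 4 probe sets listed for LINC02478 and ITGB6 differed by -0.39 to 0.21, and the 4 listed for MIR4640 and DDR1 by -0.13 to -0.055. None of the 8 passed (limma adjusted p from 0.249 to 0.9498 over all probe sets).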
